A study of Homo sapiens with 8 samples.

Results

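The 44 genes described here move or sense zinc, copper and iron: the zinc transporter families SLC30 and SLC39, the zinc sensor gene MTF1, 6 copper genes and 13 iron genes. They were chosen by name, as every symbol of the 2 families plus a fixed list of 20 others, from the 46427 gene symbols of the count table, and metallothioneins were kept apart. All cells were wild type and derived from the human embryonic stem cell line H7. Messenger RNA was sequenced from untreated cells and from cells given bleomycin at 24, 240 or 480 µg/ml, with 2 libraries in each of the 4 groups. Lung progenitors from 21 days of submerged culture were kept for 3 days submerged on inserts and for 7 days at an air-liquid interface, and bleomycin was then applied apically for 24 h. The stock solution that the labels name, at 10 µg/ml, is weaker than any of these doses, so the doses are given only as labelled. Every group, the untreated one included, thus shares 1 cell line and 1 route of differentiation. The labels call the cells differentiated type 2 alveolar cells and do not say whether the 2 libraries of a group came from separate cultures, so a p-value here reflects how far these libraries differ, which could be technical.

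Cells take up zinc through SLC39 proteins and move it out of the cytosol through SLC30 proteins, while MTF1, a transcription factor that senses free zinc, switches on metallothioneins and SLC30A1. Iron enters through the transferrin receptor and SLC11A2, is stored in ferritin, a shell of FTL and FTH1 subunits, and leaves through ferroportin, the product of SLC40A1, with the help of copper-carrying ferroxidases such as ceruloplasmin and hephaestin. When iron is scarce, the iron regulatory proteins made from ACO1 and IREB2 bind hairpins called iron-responsive elements, blocking translation where the hairpin lies in the 5′ untranslated region and protecting the transcript where it lies in the 3′ one. Bleomycin itself binds metal ions, and its complex with iron is the form that cuts DNA.

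The hairpins are shown because they lie in 4 of the iron genes followed through the doses, TFRC, SLC40A1, FTL and FTH1. They were read on the transcript strand from GENCODE 29 transcripts of GRCh38, and the capitals mark the bulged C and the loop CAGTGN of a match whose 5 bases on either side of the loop can pair, G with T included. The 4 matches in the TFRC 3′ untranslated region lie on the minus strand at chr3:196050979-196051007, chr3:196050575-196050603, chr3:196050510-196050538 and chr3:196050463-196050491. The SLC40A1 match lies on the minus strand at chr2:189580661-189580689, the FTL match on the plus strand at chr19:48965335-48965363 and the FTH1 match on the minus strand at chr11:61967574-61967602, all 3 in 5′ untranslated regions.
TFRC match 1: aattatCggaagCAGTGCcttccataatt
TFRC match 2: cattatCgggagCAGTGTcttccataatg
TFRC match 3: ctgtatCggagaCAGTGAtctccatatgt
TFRC match 4: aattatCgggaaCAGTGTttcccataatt
SLC40A1: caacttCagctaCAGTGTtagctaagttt
FTL: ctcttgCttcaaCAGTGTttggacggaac
FTH1: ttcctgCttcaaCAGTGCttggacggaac
Such a match was present in the 5′ untranslated region of 31 of 19000 genes (0.163%) and in the 3′ one of 128 of 19115 genes (0.670%). Among the 44 genes, the 5′ matches were in SLC40A1, FTL and FTH1, and the 3′ matches were in TFRC and, with a single match, in the zinc importer family gene SLC39A9. Longer regions have more places for a match. Among genes with an untranslated region of similar length, a match was present in 0.756% for TFRC, 1.08% for SLC39A9, 0.248% for SLC40A1, 0.0590% for FTL and 0.0788% for FTH1. A match describes the letters and was not tested as a binding site. An element with another loop or with an unpaired base among the 5 would be missed. A gene without a match, such as SLC11A2, is thus not shown to lack one.

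The promoter of SLC30A1 is shown because this zinc exporter gene is a known target of MTF1 and fell at the higher doses. The window runs from 250 bases before to 50 bases after the start, on the minus strand at chr1:211579112-211579411 (RefSeq, GRCh38.p14). The capitals mark 2 matches of the metal response element core TGCACNC, both read on the opposite strand, of which 1 lies 49 bases upstream of the start and 1 begins at base 25 after it.
SLC30A1 promoter: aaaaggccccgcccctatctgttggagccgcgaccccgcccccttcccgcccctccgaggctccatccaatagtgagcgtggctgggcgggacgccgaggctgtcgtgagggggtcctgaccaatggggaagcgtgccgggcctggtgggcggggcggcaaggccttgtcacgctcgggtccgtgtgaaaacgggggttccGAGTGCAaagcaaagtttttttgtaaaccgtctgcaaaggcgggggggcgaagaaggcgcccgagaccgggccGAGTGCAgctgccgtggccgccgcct
Windows of this length were at hand for 38 of the 44 genes, 57 windows in all. TGCACNC or TGCGCNC, on either strand, was present in 23 of the 57 (40.4%) and in 10377 of 35116 windows over all genes (29.6%). Both metallothionein genes that passed the filter and had a window, MT2A and MT1X, held matches, 8 and 4 of them. The sequence CAGTGN after the start, on the transcript strand, was present in 3 of the 57 windows (5.26%) and in 6.36% of all windows.

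Total counts ran from 53431773 to 67715984 per library, and the limit set by a count of 0, at 3 counts, was 0.0443 to 0.0561 CPM (counts scaled to a common library total). Such floors cover counting error only. Of the 12 type 2 alveolar markers, 9 passed the filter on low counts, and SFTPC, the defining one, had 0 counts in both untreated libraries and averaged 0.139 TPM at 480 µg/ml. The summed type 2 markers lay at 102 to 130 TPM in the untreated and 24 µg/ml libraries and at 56.5 to 75.1 TPM in the 240 and 480 µg/ml libraries. LPCAT1 carried most of that sum, at 33.9 TPM at 480 µg/ml against 68.9 TPM in untreated cells. Of the 9 tested, 1 was higher (11.1%) and 4 were lower (44.4%) at 480 µg/ml, where 13.9% of all genes were called in each direction. ABCA3, the higher one, averaged 9.62 TPM there against 4.56 TPM in untreated cells. Hepatic markers summed to 46231 to 91426 TPM and intestinal markers to 1658 to 2337 TPM in every library, so the markers go against the label. The 2 libraries of 480 µg/ml lay furthest apart, with an SD of the log2 ratio between them of 0.51 over the metal handling genes, against 0.22 to 0.40 in the other groups. Ribosomal RNA took 3.30% of counts and mitochondrial genes 3.01% in 480 µg/ml replicate 2, the highest of the 8 libraries for both. In replicate 1 of that dose they took 1.21% and 1.69%.

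Of the 44 genes, 40 passed the filter on low counts and were tested. The 4 that did not were the zinc transporter genes SLC30A3, SLC30A8 and SLC39A12, whose highest counts were 10, 14 and 5, and HAMP, the gene of the iron hormone hepcidin. HAMP had 0 counts in 7 libraries and 2 counts in 480 µg/ml replicate 1, so its transcript was not detectable at this depth in those 7. The metal handling genes together took 1.01% and 0.956% of the counts of the untreated libraries, 1.02% and 0.941% in the 24 µg/ml libraries, 1.42% and 1.38% in the 240 µg/ml libraries and 1.71% and 2.12% in the 480 µg/ml libraries. FTL had the largest part of that share, with 0.432% and 0.376% in the untreated libraries, 0.417% and 0.372% in the 24 µg/ml libraries, 0.838% and 0.816% in the 240 µg/ml libraries and 1.11% and 1.53% in the 480 µg/ml libraries.

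Levels per length, as the deposited TPM, which is scaled by gene length to a common total, covered a wide range among the 40 genes. Averaged over the 8 libraries, FTL stood highest at 18657 TPM and FTH1 next at 3745 TPM. The ferritin receptor gene NCOA4, which sends ferritin to the lysosome, averaged 398 TPM, and the ferroxidase gene HEPH 388 TPM. SLC39A7, whose product releases zinc from the endoplasmic reticulum, was the highest of the zinc importer family at 274 TPM, and SLC30A5, which loads zinc into the secretory pathway, was the highest of the zinc exporter family at 56.2 TPM. Of the copper genes, ATOX1 stood highest at 94.6 TPM, and of the iron uptake genes TFRC did, at 73.7 TPM. MTF1 averaged 5.21 TPM.

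**Figure D1:**
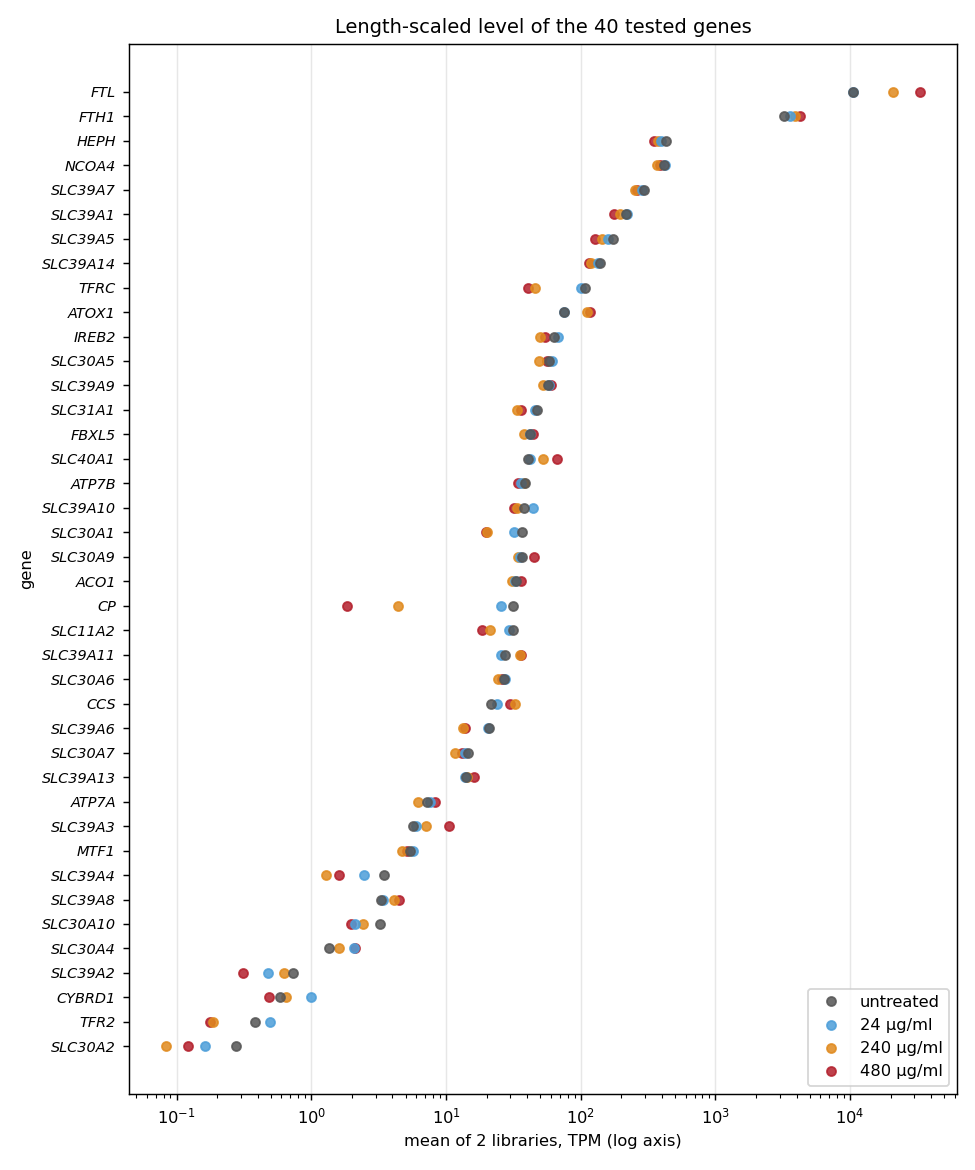
Mean TPM of the 2 libraries of each group for the 40 tested genes, on a log axis, ordered by the untreated level; the circles are the untreated, 24, 240 and 480 µg/ml groups. FTL leads in every group, and the circles of CP lie furthest apart, at 1.84 TPM with 480 µg/ml and 31.6 TPM in untreated cells.

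At 24 µg/ml none of the 40 genes was called, that is, none had an adjusted p under 0.05 by edgeR's quasi-likelihood test over 18303 genes. No gene of the whole table was called at that dose either (0%), and 605 had an unadjusted p under 0.05 (3.31%). DESeq2 called 36 genes of the whole table and none of the metal handling genes. Their log2 fold changes had a median of -0.02, with 18 above 0 and 22 below, beside a median of 0.01 over all genes tested.

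At 240 µg/ml 6 of the 40 genes were called against untreated cells, which is 15%, while 10.3% of all genes tested were. FTL and CCS were higher, where 5.16% of all genes were, and SLC30A1, SLC39A4, CP and TFRC were lower, where 5.17% were. The median log2 fold change of the 40 was -0.08, with 14 above 0 and 26 below, beside 0.01 over all genes. Without the libraries of 480 µg/ml, a setting chosen after seeing the data, 14 of the 40 were called at 240 µg/ml (6 higher and 8 lower), and 5077 of 17866 genes were.

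At 480 µg/ml 12 of the 40 genes were called, which is 30%, while 27.8% of all genes tested were. Higher were FTL, SLC40A1, ATOX1, CCS and SLC39A11 (13.9% of all genes), and lower were CP, TFRC, SLC11A2, SLC30A1, SLC30A10, SLC39A4 and SLC39A6 (13.9% of all genes). The median was -0.13, with 15 above 0 and 25 below, beside 0.01 over all genes. From the 2 compared groups alone, 6 of the 12 were called, CP, TFRC, SLC11A2, SLC30A1, FTL and SLC40A1. That fit called 2858 of 17460 genes over the whole table. Both shares of called genes lie near those of all genes, so the counts are not a result about metal handling genes as a set, and what follows is about single genes. Each dose was compared with the same 2 untreated libraries, so its values stand side by side and are not independent of those of the other doses. Libraries of 2 groups often do not overlap. For 240 µg/ml, 30.7% of all genes tested had both libraries above both untreated ones, while 35.1% had both below. The shares for 480 µg/ml were 32.3% above and 29.6% below. Even for 24 µg/ml, without any call, they were 15.3% above and 18.9% below. A lack of overlap, as described below for single genes, is thus common and is not by itself evidence of a change. In bulk RNA, fewer cells of a type and less RNA per cell cannot be told apart.

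**Figure D2:**
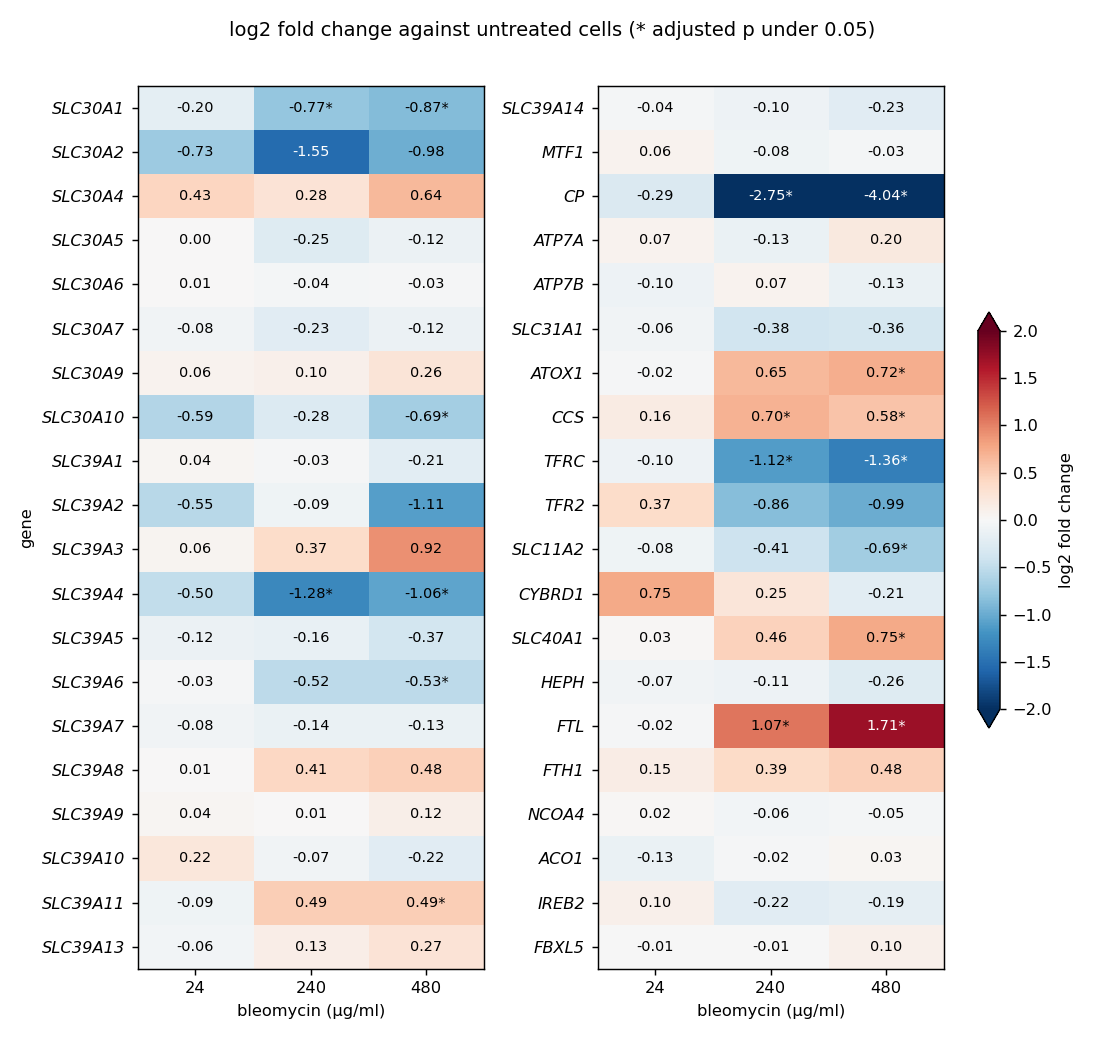
log2 fold change of each tested gene against untreated cells at 24, 240 and 480 µg/ml, with a star where the adjusted p is under 0.05 and colours limited to the range from -2 to 2. No star stands at 24 µg/ml, 6 stand at 240 µg/ml and 12 at 480 µg/ml, where CP at -4.04 is the lowest value and FTL at 1.71 the highest.

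Among the genes of iron uptake, TFRC, which encodes the transferrin receptor (chromosome 3, 196049284 to 196082090, minus strand), fell at both higher doses. TFRC had 223 and 247 CPM in the untreated libraries, 221 and 214 CPM at 24 µg/ml, 115 and 95.2 CPM at 240 µg/ml and 110 and 74.3 CPM at 480 µg/ml. All 4 libraries of the higher doses lay below all 4 others. Against untreated cells its log2 fold change was -1.12 ± 0.17 (SE, adjusted p = 0.00793) at 240 µg/ml and -1.36 ± 0.17 (adjusted p = 0.000992) at 480 µg/ml, where it was 0.388 of the untreated level. Against 24 µg/ml, the 240 µg/ml cells were lower by -1.02 ± 0.17 on the log2 scale (adjusted p = 0.0166), and 480 µg/ml against 240 µg/ml gave -0.24, which was not called (adjusted p = 0.676).

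SLC11A2, the gene of the divalent metal transporter DMT1 that brings iron out of endosomes, had 52.97 and 55.46 CPM in the untreated libraries, 50.03 and 51.70 CPM at 24 µg/ml, 40.2 and 39.4 CPM at 240 µg/ml and 37.1 and 30.5 CPM at 480 µg/ml. Each group of the higher doses lay below the untreated and 24 µg/ml groups. SLC11A2 fell at 480 µg/ml (-0.69 ± 0.12, adjusted p = 0.00342) and was not called at 240 µg/ml (-0.41 ± 0.12, adjusted p = 0.0588). The other 2 uptake genes, TFR2, a second transferrin receptor, and CYBRD1, a ferric reductase, were scarce, at 0.146 to 0.768 CPM and 0.914 to 2.29 CPM over the libraries, and neither was called. TFRC lost its call at 240 µg/ml without either untreated library or without 240 µg/ml replicate 2 (-1.18 to -0.98, adjusted p 0.0571 to 0.0969), and kept it at 480 µg/ml in all 16 alternatives, as SLC11A2 did.

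Of the storage genes, FTL, the ferritin light chain gene (chromosome 19, 48965309 to 48966879, plus strand), was the one called. FTL had 4319 and 3759.7 CPM in the untreated libraries, 4172 and 3724 CPM at 24 µg/ml, 8382 and 8161 CPM at 240 µg/ml and 11096 and 15282 CPM at 480 µg/ml. The untreated and 24 µg/ml libraries overlapped, and every library of the higher doses lay above them. FTL rose 2.10-fold at 240 µg/ml (log2 1.07 ± 0.18, adjusted p = 0.0104) and 3.27-fold at 480 µg/ml (log2 1.71 ± 0.18, adjusted p = 0.000473) against untreated cells. At 240 µg/ml it was higher than at 24 µg/ml by 1.09 ± 0.18 (adjusted p = 0.0159), and 480 µg/ml against 240 µg/ml gave 0.64 ± 0.18, which was not called (adjusted p = 0.216).

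FTH1, the heavy chain gene that carries ferritin's ferroxidase site, had 1749 and 1643 CPM in the untreated libraries, 1994 and 1733 CPM at 24 µg/ml, 2104 and 2224 CPM at 240 µg/ml and 2026 and 2688 CPM at 480 µg/ml. It lay above the untreated libraries in each library of the higher doses without being called (0.39 ± 0.17, adjusted p = 0.179 at 240 µg/ml; 0.48 ± 0.17, adjusted p = 0.065 at 480 µg/ml). Within a library, FTL over FTH1, as a ratio of TPM, was 3.41 and 3.16 in the untreated libraries, 2.89 and 2.97 in the 24 µg/ml libraries, 5.50 and 5.07 in the 240 µg/ml libraries and 7.56 and 7.85 in the 480 µg/ml libraries. This ratio did not overlap between any of the 3 levels formed by the untreated and 24 µg/ml libraries, the 240 µg/ml libraries and the 480 µg/ml libraries, although the 2 libraries of 480 µg/ml differed more in FTL itself. TFRC as a share of FTL, by TPM, was 0.898% and 1.14% in the untreated libraries, 0.923% and 0.999% in the 24 µg/ml libraries, 0.240% and 0.205% in the 240 µg/ml libraries and 0.172% and 0.0847% in the 480 µg/ml libraries. These ratios were chosen after the values were seen and were not tested.

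NCOA4 had 631 and 654 CPM in the untreated libraries, 635 and 659 CPM at 24 µg/ml, 638 and 563 CPM at 240 µg/ml and 703 and 550.4 CPM at 480 µg/ml, and its groups overlapped. Ferritin has many processed pseudogenes. The 10 FTL pseudogene rows of the table together held at most 0.0457% of the FTL count in any library, and the 20 FTH1 rows at most 0.435% of the FTH1 count, and how reads were shared between a gene and its copies is not given in the sources used here. BEST1 overlaps FTH1 on the other strand, and the strand counted is not given either. FTL lost its call at 240 µg/ml without any 1 of the untreated or 240 µg/ml libraries (0.95 to 1.19, adjusted p 0.0575 to 0.0959) and kept it at 480 µg/ml in all 16 alternatives.

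**Figure D3:**
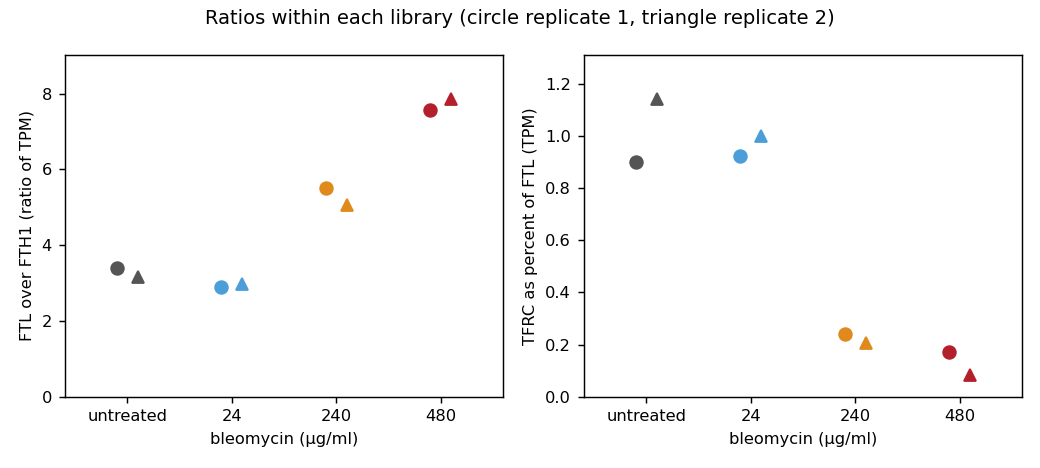
FTL over FTH1 as a ratio of TPM (left) and TFRC as a percent of FTL by TPM (right) in each of the 8 libraries, with circles for replicate 1 and triangles for replicate 2, by bleomycin dose. The 480 µg/ml libraries stand at 7.56 and 7.85 on the left, and on the right all 4 libraries of the higher doses stand at 0.240% or less.

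In iron export, SLC40A1, the gene of ferroportin (chromosome 2, 189560590 to 189580786, minus strand), had 58.0 and 61.3 CPM in the untreated libraries, 65.1 and 55.5 CPM at 24 µg/ml, 92.1 and 67.6 CPM at 240 µg/ml and 113 and 89.2 CPM at 480 µg/ml. Untreated and 24 µg/ml libraries overlapped, and those of the higher doses lay above both. SLC40A1 rose 1.69-fold at 480 µg/ml (log2 0.75 ± 0.18, adjusted p = 0.0148) and was not called at 240 µg/ml (0.46 ± 0.18, adjusted p = 0.142). HEPH, the gene of the membrane-bound ferroxidase that works beside ferroportin in the intestine, had 821 and 829 CPM in the untreated libraries, 830.45 and 731 CPM at 24 µg/ml, 815 and 676.5 CPM at 240 µg/ml and 733 and 651 CPM at 480 µg/ml, and was not called (-0.26 ± 0.14, adjusted p = 0.189 at 480 µg/ml). The SLC40A1 call was lost without either untreated library (0.73 and 0.77, adjusted p 0.0897 to 0.102).

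No gene of iron regulation was called. ACO1, the gene of iron regulatory protein 1, had 109 and 99.3 CPM in the untreated libraries, 97.02 and 91.6 CPM at 24 µg/ml, 103 and 97.8 CPM at 240 µg/ml and 113 and 101 CPM at 480 µg/ml. Its log2 fold change at 480 µg/ml was 0.03, with a 95% interval of -0.24 to 0.31. IREB2, the gene of iron regulatory protein 2, had 166 and 182 CPM in the untreated libraries, 175 and 195 CPM at 24 µg/ml, 146 and 146 CPM at 240 µg/ml and 199 and 111 CPM at 480 µg/ml. The 480 µg/ml libraries lay on either side of all others for IREB2, and its fold change there was -0.19 with both and -0.62 without 480 µg/ml replicate 1, where it was called (adjusted p = 0.000967). FBXL5, which encodes the iron-sensing subunit of the ubiquitin ligase that removes iron regulatory protein 2, stayed between 62.8 and 78.1 CPM over the 8 libraries.

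Ceruloplasmin is the copper-carrying ferroxidase of plasma, made mainly by the liver, and its gene CP (chromosome 3, 149162414 to 149221829, minus strand) changed most of the 40. CP had 61.9 and 56.9 CPM in the untreated libraries, 54.4 and 41.8 CPM at 24 µg/ml, 6.72 and 10.6 CPM at 240 µg/ml and 4.48 and 2.84 CPM at 480 µg/ml. The 4 groups did not overlap, in the order of the doses. CP fell to 0.149 of the untreated level at 240 µg/ml (log2 -2.75 ± 0.26, adjusted p = 0.0013) and to 0.0609 of it at 480 µg/ml (log2 -4.04 ± 0.28, adjusted p = 0.000107), and both calls held in all alternatives. Against 24 µg/ml, the 240 µg/ml cells were lower by -2.46 ± 0.26 (adjusted p = 0.00591), a call lost without 240 µg/ml replicate 2 (-2.81, adjusted p = 0.0527), and 480 µg/ml against 240 µg/ml gave -1.29 ± 0.26 (adjusted p = 0.107).

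The hepatic markers, most of them genes of proteins that the liver secretes, were not lower at the 2 larger doses as CP was. All 12 were tested, and at 240 µg/ml 2 were higher, 0 were lower and all 12 had a log2 fold change above 0. At 480 µg/ml 3 were higher and 0 lower, with 11 above 0. Of all genes, 5.16% were called higher at 240 µg/ml and 13.9% at 480 µg/ml. Their summed level was 91426 and 81996 TPM at 240 µg/ml and 83437 and 69712 TPM at 480 µg/ml, against 59812 and 64225 TPM in untreated cells. At 24 µg/ml 1 of the 12 lay above 0 and 11 below, with a median log2 fold change of -0.26, beside -0.29 for CP. None was called at that dose, and the sum was 66089 and 46231 TPM. Most of the sum was AFP, which averaged 54670 TPM at 240 µg/ml and 45822 TPM at 480 µg/ml, against 41158 TPM in untreated cells, and was not called. The part of these markers' level in the values of FTL, CP and the other metal handling genes was not tested. HPS3 overlaps CP on the other strand, and reads of the pair cannot be told apart if strand was not used in counting.

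CCS and ATOX1 encode copper chaperones. CCS, whose product loads copper into superoxide dismutase, had 10.8 and 9.67 CPM in the untreated libraries, 10.96 and 11.7 CPM at 24 µg/ml, 14.7 and 17.8 CPM at 240 µg/ml and 13.5 and 17.03 CPM at 480 µg/ml. It rose at 240 µg/ml (0.70 ± 0.17, adjusted p = 0.0371) and at 480 µg/ml (0.58 ± 0.17, adjusted p = 0.0359). ATOX1, whose product hands copper to the pumps ATP7A and ATP7B, had 17.1 and 14.1 CPM in the untreated libraries, 14.9 and 15.6 CPM at 24 µg/ml, 22.8 and 25.1 CPM at 240 µg/ml and 19.8 and 31.5 CPM at 480 µg/ml. ATOX1 rose at 480 µg/ml (0.72 ± 0.23, adjusted p = 0.0422) and was not called at 240 µg/ml (0.65 ± 0.23, adjusted p = 0.103). Both genes overlap others on the opposite strand, CCDC87 for CCS and G3BP1 for ATOX1.

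Without 480 µg/ml replicate 2 the log2 fold change at 480 µg/ml was 0.29 for ATOX1 and 0.35 for CCS, and neither was called. Both were also lost at 480 µg/ml without any 1 of the untreated, 24 or 240 µg/ml libraries (adjusted p up to 0.241 for ATOX1 and 0.218 for CCS), and CCS at 240 µg/ml without any 1 of the same 6 (0.56 to 0.82, adjusted p 0.0696 to 0.249).

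The remaining copper genes were not called. SLC31A1, the gene of the main copper importer, had 96.4 and 101 CPM in the untreated libraries, 93.6 and 93.5 CPM at 24 µg/ml, 77.4 and 70.0 CPM at 240 µg/ml and 86.6 and 68.4 CPM at 480 µg/ml. Its libraries lay below the untreated ones at every dose, with -0.38 ± 0.13 (adjusted p = 0.0937) at 240 µg/ml and -0.36 ± 0.13 (adjusted p = 0.0689) at 480 µg/ml. ATP7B, the gene of the liver's copper pump, lay between 91.2 and 115 CPM in all libraries, and its 95% interval at 480 µg/ml was -0.43 to 0.16 on the log2 scale. ATP7A, the gene of the copper pump of most other tissues, had 25.3 and 28.2 CPM in the untreated libraries, 26.5 and 29.2 CPM at 24 µg/ml, 25.3 and 22.5 CPM at 240 µg/ml and 41.5 and 20.9 CPM at 480 µg/ml. As for IREB2, the 2 libraries of 480 µg/ml lay on either side of all the others.

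Of the 8 tested SLC30 genes, 1 was called at 240 µg/ml and 2 at 480 µg/ml, all lower. These were 12.5% and 25% of the 8, where 5.17% and 13.9% of all genes were called lower. SLC30A1, the zinc exporter of the cell surface (chromosome 1, 211571568 to 211579161, minus strand), had 92.5 and 97.5 CPM in the untreated libraries, 79.3 and 84.6 CPM at 24 µg/ml, 58.3 and 50.04 CPM at 240 µg/ml and 61.6 and 43.4 CPM at 480 µg/ml. All 6 treated libraries lay below the untreated ones, and those of the 2 larger doses lay below those of 24 µg/ml and overlapped each other. SLC30A1 fell at 240 µg/ml (-0.77 ± 0.16, adjusted p = 0.0195) and at 480 µg/ml (-0.87 ± 0.16, adjusted p = 0.00433, 0.548 of the untreated level), and the value at 24 µg/ml was -0.20 (95% interval -0.55 to 0.15). The call at 240 µg/ml was lost without any 1 of the untreated or 240 µg/ml libraries (-0.90 to -0.66, adjusted p 0.079 to 0.181), and the call at 480 µg/ml was kept in all 16 alternatives.

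SLC30A10, whose product mainly exports manganese, had 7.597 and 10.8 CPM in the untreated libraries, 6.26 and 5.80 CPM at 24 µg/ml, 7.11 and 7.67 CPM at 240 µg/ml and 7.05 and 4.46 CPM at 480 µg/ml. It fell at 480 µg/ml (-0.69 ± 0.22, adjusted p = 0.049) and was lost without any 1 library but 480 µg/ml replicate 1 (-0.91 to -0.43, adjusted p 0.0542 to 0.313), and also with RLE factors and by limma on TPM. SLC30A5 had 90.5 and 92.55 CPM in the untreated libraries, 92.0 and 90.0 CPM at 24 µg/ml, 75.8 and 74.3 CPM at 240 µg/ml and 96.1 and 73.5 CPM at 480 µg/ml, and was not called (-0.25 ± 0.13, adjusted p = 0.252 at 240 µg/ml). In the other 5 tested SLC30 genes the values at 480 µg/ml ran from -0.98 for SLC30A2, with at most 0.411 CPM in any library, to 0.64 for SLC30A4, and none was called.

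Of the 13 tested SLC39 genes, 1 was called higher (7.69%) and 2 lower (15.4%) at 480 µg/ml, where 13.9% of all genes were called in each direction. SLC39A4, the importer by which the intestine takes up dietary zinc (chromosome 8, 144412414 to 144416844, minus strand), had 3.83 and 2.57 CPM in the untreated libraries, 2.72 and 1.76 CPM at 24 µg/ml, 1.55 and 1.02 CPM at 240 µg/ml and 1.70 and 1.40 CPM at 480 µg/ml. The libraries of the larger doses lay below all others. It fell at 240 µg/ml (-1.28 ± 0.34, adjusted p = 0.0444) and at 480 µg/ml (-1.06 ± 0.33, adjusted p = 0.0421). Of the intestinal markers, 11 of 12 were tested. At 480 µg/ml LGALS4, FABP2 and OLFM4 were lower (27.3% of the 11) and CDX2 and ISX higher (18.2%), where 13.9% of all genes were called in each direction. Their summed level was 2337 and 1802 TPM at 480 µg/ml, against 2001 and 2089 TPM in untreated cells, and its part in the SLC39A4 value was not tested.

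SLC39A6, a zinc importer of the cell surface, had 31.3 and 34.4 CPM in the untreated libraries, 30.4 and 33.6 CPM at 24 µg/ml, 21.4 and 23.2 CPM at 240 µg/ml and 26.6 and 19.3 CPM at 480 µg/ml. It fell at 480 µg/ml (-0.53 ± 0.14, adjusted p = 0.026) and had nearly the same value at 240 µg/ml without being called (-0.52 ± 0.14, adjusted p = 0.0532). SLC39A11, another member of the importer family, moved the other way, with 31.3 and 33.9 CPM in the untreated libraries, 31.2 and 29.4 CPM at 24 µg/ml, 49.3 and 40.1 CPM at 240 µg/ml and 47.8 and 44.0 CPM at 480 µg/ml. It rose at 480 µg/ml (0.49 ± 0.14, adjusted p = 0.0295) and was higher at 240 than at 24 µg/ml (0.58 ± 0.14, adjusted p = 0.0417), while 240 µg/ml against untreated cells gave 0.49 ± 0.14 (adjusted p = 0.0552).

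The zinc import calls rested on few libraries too. SLC39A4 was lost at 240 µg/ml without 24 µg/ml replicate 1 or any 1 of the untreated or 240 µg/ml libraries (-1.63 to -0.95, adjusted p 0.0516 to 0.274), and at 480 µg/ml without 240 µg/ml replicate 1 or any 1 of the untreated or 480 µg/ml libraries (-1.34 to -0.73, adjusted p up to 0.248). SLC39A6 at 480 µg/ml was lost without any 1 of the untreated, 24 or 240 µg/ml libraries (-0.58 to -0.49, adjusted p 0.0506 to 0.156) or by limma on TPM. SLC39A11 at 480 µg/ml was lost without any 1 of the untreated or 24 µg/ml libraries (0.44 to 0.52, adjusted p 0.0559 to 0.186), and its difference between 240 and 24 µg/ml was lost without any 1 of the untreated, 24 or 240 µg/ml libraries (0.41 to 0.74, adjusted p 0.095 to 0.278). Neither SLC39A11 call was made by limma on TPM.

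**Figure D4:**
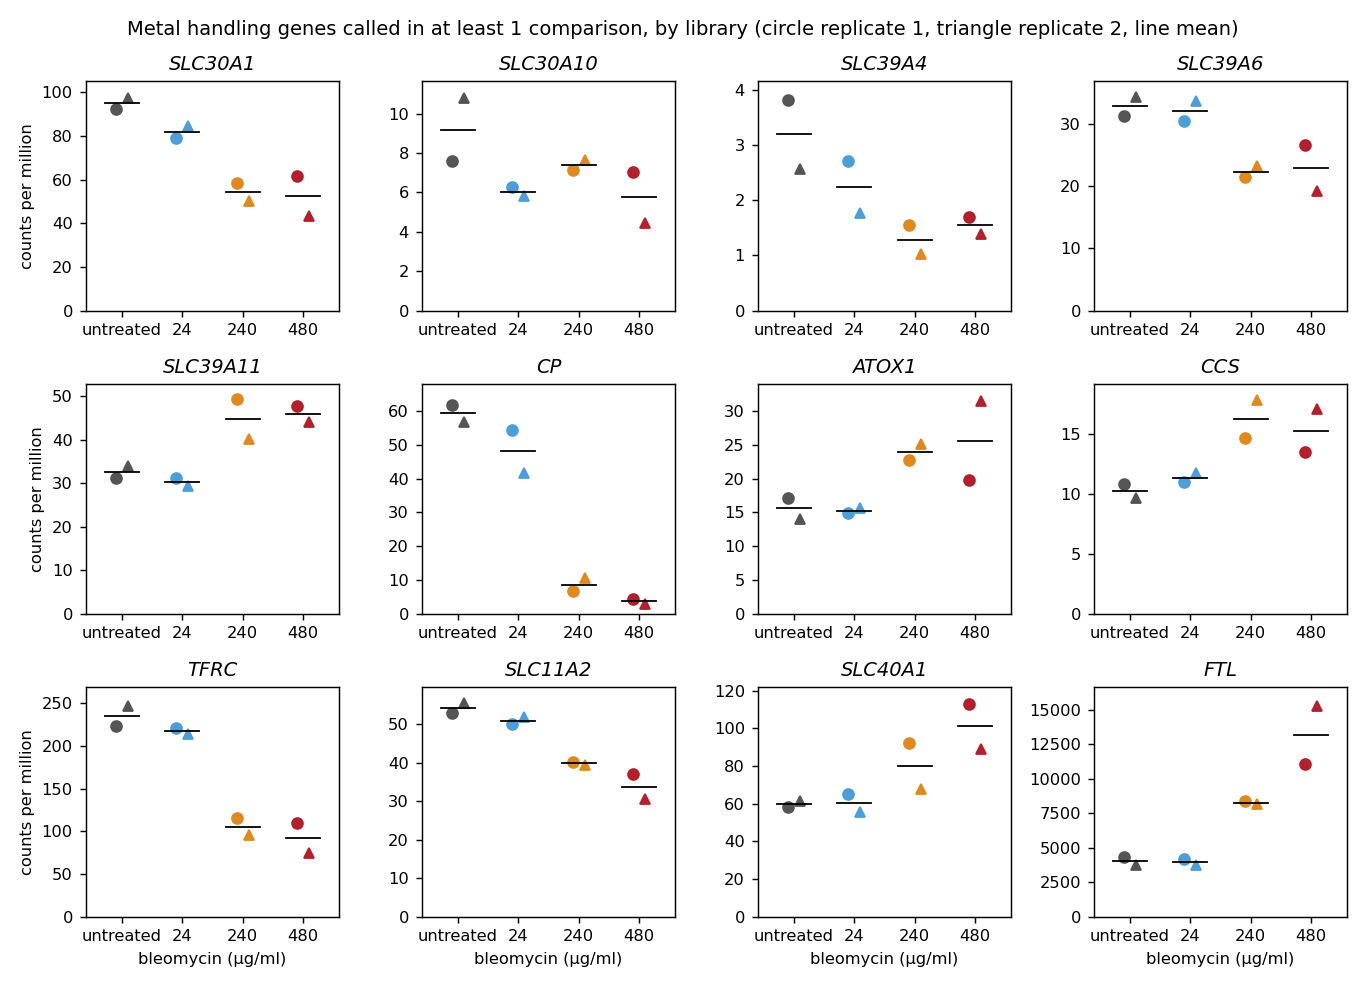
CPM of the 12 genes called in at least 1 comparison in each of the 8 libraries, by bleomycin dose, with circles for replicate 1, triangles for replicate 2 and a line at the mean. CP and TFRC were lower and FTL and SLC39A11 higher at 240 than at 24 µg/ml, and the 2 libraries of 480 µg/ml stand apart in ATOX1 at 19.8 and 31.5 CPM.

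The zinc importers with wider metal range were not called. SLC39A14 and SLC39A8 encode carriers that also take in manganese and non-transferrin iron. SLC39A14 had 290 and 288 CPM in the untreated libraries, 275 and 284 CPM at 24 µg/ml, 258 and 267 CPM at 240 µg/ml and 287 and 212 CPM at 480 µg/ml, with -0.23 ± 0.13 (adjusted p = 0.236) at 480 µg/ml. SLC39A8 had 4.47 and 4.76 CPM in the untreated libraries, 4.59 and 4.65 CPM at 24 µg/ml, 7.41 and 4.53 CPM at 240 µg/ml and 7.11 and 5.81 CPM at 480 µg/ml, with 0.48 ± 0.23 (adjusted p = 0.157) at 480 µg/ml. SLC39A7 had 302 and 278 CPM in the untreated libraries, 277 and 268.5 CPM at 24 µg/ml, 265 and 249.9 CPM at 240 µg/ml and 253 and 276 CPM at 480 µg/ml, and its 95% interval at 480 µg/ml was -0.42 to 0.15. The other 7 tested SLC39 genes had values between -1.11, for SLC39A2 at no more than 0.564 CPM, and 0.92, for SLC39A3, at 480 µg/ml, and none was called.

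MTF1, the zinc sensor, had 17.8 and 19.4 CPM in the untreated libraries, 18.6 and 20.1 CPM at 24 µg/ml, 15.8 and 18.6 CPM at 240 µg/ml and 20.6 and 16.1 CPM at 480 µg/ml. All 4 groups overlapped. Its log2 fold change was -0.08 at 240 µg/ml (95% interval -0.40 to 0.23) and -0.03 at 480 µg/ml (-0.35 to 0.28), so its transcript level was not shown to differ, within those bounds, beside the lower level of its known target SLC30A1.

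The metallothioneins, small proteins that hold zinc and copper and are the best known MTF1 targets, fell at the 2 larger doses. Of the 11 genes, 5 were tested, MT1E, MT1F, MT1G, MT1X and MT2A, and all 5 were lower at 240 µg/ml (median -3.79) and at 480 µg/ml (median -4.83), beside medians of 0.01 over all genes. The shares of all genes called lower were 5.17% at 240 µg/ml and 13.9% at 480 µg/ml. At 24 µg/ml all 5 lay below 0 with a median of -0.82 and none was called. MT1X had 33.1 and 35.7 CPM in the untreated libraries, 17.8 and 23.7 CPM at 24 µg/ml, 1.61 and 0.776 CPM at 240 µg/ml and 0.146 and 0.619 CPM at 480 µg/ml. MT2A had 90.2 and 82.8 CPM in the untreated libraries, 42.5 and 51.5 CPM at 24 µg/ml, 8.22 and 4.01 CPM at 240 µg/ml and 2.05 and 3.95 CPM at 480 µg/ml. Its log2 fold change was -3.79 ± 0.38 (adjusted p = 0.00158) at 240 µg/ml and -4.84 ± 0.40 (adjusted p = 0.000185) at 480 µg/ml, beside -0.77 and -0.87 for SLC30A1. Metallothionein genes are near copies of each other, so how reads were split among them is uncertain.

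Of 10 other copper genes 1 (10%) was called higher at both larger doses, where 5.16% of all genes were at 240 µg/ml and 13.9% at 480 µg/ml. COMMD1, which encodes a protein of copper export and endosomal sorting, had 5.51 and 5.02 CPM in the untreated libraries, 4.31 and 5.21 CPM at 24 µg/ml, 8.85 and 8.36 CPM at 240 µg/ml and 10.6 and 10.9 CPM at 480 µg/ml, and rose by 1.03 ± 0.15 on the log2 scale at 480 µg/ml (adjusted p = 0.00181). Of 29 other iron and heme genes 26 were tested. At 240 µg/ml 3 were higher (11.5%) and 2 lower (7.69%), where 5.16% and 5.17% of all genes were. At 480 µg/ml 3 were higher (11.5%) and 4 lower (15.4%), where 13.9% of all genes were called in each direction. ISCU, the scaffold on which iron-sulphur clusters are built, had 26.1 and 23.7 CPM in the untreated libraries, 30.4 and 31.2 CPM at 24 µg/ml, 50.2 and 48.9 CPM at 240 µg/ml and 58.5 and 66.3 CPM at 480 µg/ml. It rose by 1.03 ± 0.13 at 240 µg/ml (adjusted p = 0.00414) and 1.32 ± 0.13 at 480 µg/ml (adjusted p = 0.000388).

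NFS1, the desulfurase that supplies sulphur to that scaffold, rose by 0.84 ± 0.14 at 480 µg/ml (adjusted p = 0.00315), with 21.2 and 22.8 CPM there against 12.1 and 12.4 CPM in untreated cells. SLC25A37, the mitochondrial iron importer mitoferrin 1, fell at 240 µg/ml (-0.65 ± 0.14, adjusted p = 0.0213) and at 480 µg/ml (-0.79 ± 0.14, adjusted p = 0.00344). STEAP3, the endosomal ferric reductase that works before SLC11A2, rose at 240 µg/ml (0.96 ± 0.18, adjusted p = 0.0143) and was not called at 480 µg/ml (0.43 ± 0.18, adjusted p = 0.0986). It had 14.9 and 15.6 CPM in untreated cells and 22.1 and 26.5 CPM at 24 µg/ml, where no gene of the whole table was called. STEAP3 then had 25.4 and 32.9 CPM at 240 µg/ml and 18.3 and 22.9 CPM at 480 µg/ml. Other calls included ABCG2, lower at both doses, and at 480 µg/ml FECH, higher, and FLVCR1, lower.

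The 2 libraries of 480 µg/ml differed with gene length. Over all tested genes, the log2 ratio of replicate 2 to replicate 1 had a Spearman correlation of -0.43 with length relative to the median gene, and over the 40 metal handling genes it was -0.76 (a description over genes of 2 libraries). Of the 20 longer metal handling genes, 19 were lower in replicate 2 and 1 was higher, with a median of -0.38. Of the 20 shorter ones, 9 were lower and 11 higher, with a median of 0.26. The same correlation over all genes was 0.27 in untreated cells, 0.08 for 24 µg/ml and -0.05 for 240 µg/ml. Over the metal handling genes it was 0.37 in untreated cells, 0.35 for 24 µg/ml and 0.002 for 240 µg/ml. ATOX1, FTL, CCS and FTH1, at 0.143, 0.265, 0.332 and 0.366 of the median length, are short, while SLC30A1, TFRC and CP, at 1.79, 1.52 and 1.32 times it, are long. Fold changes against untreated cells had a weaker relation with length, of -0.18 over all genes and -0.32 over the metal handling genes at 240 µg/ml, while 480 µg/ml gave -0.14 over all genes and -0.18 over the metal handling genes. For 240 against 24 µg/ml it was -0.245 over all genes and -0.39 over the metal handling genes. With each library's trend along gene length taken out, a setting chosen after seeing the data, every metal handling gene called at 240 or 480 µg/ml against untreated cells was still called.

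**Figure D5:**
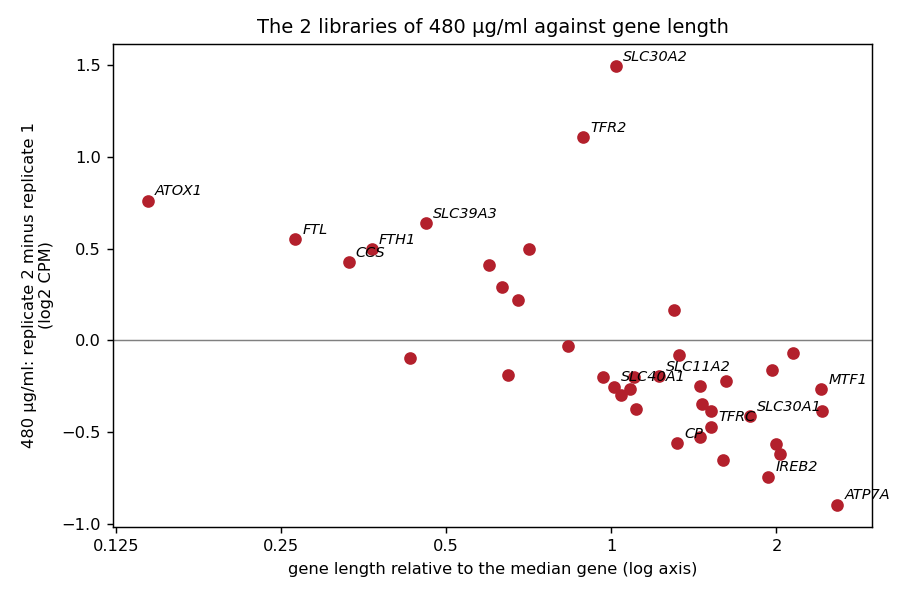
Each circle is 1 of the 40 tested genes: its log2 CPM in 480 µg/ml replicate 2 minus replicate 1 against gene length relative to the median gene (log axis). Short genes such as ATOX1 lie above 0 and long ones such as ATP7A below it, with ATOX1 at 0.76 and ATP7A at -0.90.

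Between 480 and 240 µg/ml none of the 40 genes was called, and 0.257% of all genes tested were. Of all genes, 0.0273% were higher and 0.229% lower, and 11.2% had an unadjusted p under 0.05. DESeq2 called 2 of the 44 metal handling genes, beside 320 of 30765 genes over the whole table. Between 240 and 24 µg/ml 4 of the 40 genes were called, where 6.83% of all genes were: FTL and SLC39A11 were higher (3.34% of all genes) and CP and TFRC were lower (3.49% of all genes). Without any 1 of the 24 or 240 µg/ml libraries, TFRC (-1.18 to -0.88, adjusted p 0.0879 to 0.165) and FTL (0.98 to 1.21, adjusted p 0.0651 to 0.128) lost their calls in that comparison.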

How the data were processed

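Reads from TruSeq stranded mRNA libraries were processed with Trimmomatic, HISAT2, Bowtie2 and StringTie on GRCh38, per the submitters' processing notes; their versions, the annotation and the strand counted are not given in the sources used here. The authors deposited whole-number read counts per gene symbol, which carry no normalization and were used for every test, and TPM, which was used for levels compared between genes, ratios, marker sums and 1 alternative. FPKM was not used, and 0 columns of per-sample values were set aside.

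Counts were filtered (filterByExpr, at least 10 counts and 15 in total, 18303 genes) and tested with the quasi-likelihood functions of edgeR 4.0.16 (R 4.3.3) after TMM scaling; the model held all 8 libraries and no term besides group, and p-values were adjusted by Benjamini-Hochberg over all genes tested, with 0.05 as the threshold. The common dispersion was 0.0226. CPM is a count over the library's total count. Each SE was obtained by dividing the log2 fold change by the square root of F. The SLC39A9 and other hairpin matches come from a search chosen after seeing the data. Coordinates of genes are from RefSeq GRCh38.p14.

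Alternatives were DESeq2 1.42.0, RLE factors, no filter, a filter at 50 counts in 2 or more libraries, the 2 compared groups alone, a replicate block, limma 3.58.1 on log2(TPM + 1) with TPM above 0.5 in at least 2 libraries, and each library left out in turn. Leaving out the 480 µg/ml libraries and an offset for gene length were added after seeing the data. The scripts were tested on simulated data. Genes named with values are those called in any comparison, the highest by TPM of each role, a fixed set around CP, MTF1, the ferritins, their regulators and main transporters, and up to 3 of each other list by smallest p; SLC30A2, SLC30A4, SLC39A2, SLC39A3, TFR2, CYBRD1, ATP7A, FBXL5, ABCG2, FECH and FLVCR1 were named after their values were seen. The genes and lists were chosen with earlier results of these data known.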

Additional observations from a re-analysis of the deposited data

How the results depend on the processing

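Of 22 pairs of gene and comparison that were called, 6 kept their call in all alternatives run (CP at 240 µg/ml and CP, TFRC, FTL, SLC11A2 and SLC30A1 at 480 µg/ml, each against untreated cells), and none of the 22 reversed. The number of metal handling genes called at 240 µg/ml against untreated cells was 6. It became 10 with DESeq2 (2409 of 30765 genes over the whole table) and 10 with the offset for transcript length (2620 of 18303). It became 14 from only the 2 groups (5399 of 17460) and 14 without the 480 µg/ml libraries (5077 of 17866). The number fell without any 1 of the untreated, 24 or 240 µg/ml libraries and rose without either 480 µg/ml library. The number over all genes fell and rose in the same fits. At 480 µg/ml the 12 became 6 from only the 2 groups and ran from 5 to 21 with 1 library left out. The number over all genes moved in the same directions, with 2858 of 17460 called from only the 2 groups. Both numbers fell without any 1 of the untreated, 24 or 240 µg/ml libraries and rose without either 480 µg/ml library. The swing is thus not particular to metal handling genes. For 480 against 240 µg/ml the 0 became 2 with DESeq2 (320 of 30765 genes), 2 with no filter (465 of 30765) and 1 with the offset (138 of 18303). It rose without either 480 µg/ml library, as the number over all genes did, and in no other fit with 1 library left out. For 240 against 24 µg/ml the 4 became 7 with DESeq2 (1862 of 30765 genes), no filter (2375 of 30765) or the offset (1973 of 18303). The 4 became 13 from only the 2 groups (4341 of 17460) or without the 480 µg/ml libraries (4722 of 17866). This number too fell without any 1 of the untreated, 24 or 240 µg/ml libraries and rose without either 480 µg/ml library, as the number over all genes did. At 24 µg/ml the count was 0 throughout. Over all genes, the 1892 called at 240 µg/ml became 2907 with no filter, 5399 from the 2 groups alone and 5077 without the 480 µg/ml libraries, and the 5085 at 480 µg/ml became 2858 from the 2 groups alone. The cause of these changes was not tested.

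Values that changed sign were all uncalled in the main test. With the offset for transcript length these were FTL at 24 µg/ml (0.0217), MTF1 at 240 µg/ml (0.074) and 480 µg/ml (0.14) and ACO1 at 240 µg/ml (0.0713), and with limma on TPM it was ATP7B at 240 µg/ml (-0.0334). With 1 library left out, the log2 fold change against untreated cells ran from -0.14 to 0.10 for FTL at 24 µg/ml. At 240 µg/ml it ran from -0.0040 to 0.73 for SLC39A8, -0.19 to 0.0175 for MTF1, -0.26 to 0.0302 for HEPH and -0.11 to 0.0634 for ACO1. At 480 µg/ml it ran from -0.29 to 0.0209 for SLC30A5, -0.19 to 0.0925 for MTF1, -0.0553 to 0.12 for ACO1 and -0.62 to 0.14 for IREB2. SLC30A1 at 480 against 240 µg/ml ran from -0.32 to 0.10. Where a library was left out, its group's lone library was assumed to vary like the others.

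Samples with the same replicate number did not deviate together (correlations from -0.08 to 0.05 over the 5 comparisons), so the numbers are not shown to pair the libraries. With the replicate block the count of metal handling genes called was 0 at 24 µg/ml, 5 at 240 µg/ml and 9 at 480 µg/ml against untreated cells, 0 between 480 and 240 µg/ml and 3 between 240 and 24 µg/ml. Over all 18303 genes the block fit called 0, 1289, 4385, 8 and 621 in the same order. The calls absent with the block were CCS at 240 µg/ml, CCS, ATOX1 and SLC30A10 at 480 µg/ml, and SLC39A11 between 240 and 24 µg/ml.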

Other observations

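Zinc transporter genes known mainly from other tissues were counted only in traces, SLC39A12 included. SLC30A8, the zinc transporter of insulin granules, had 14 counts in 480 µg/ml replicate 2, 6 and 3 counts at 240 µg/ml, 3 counts in 24 µg/ml replicate 2 and 0 counts in the other libraries. SLC30A3, the zinc transporter of synaptic vesicles, had 0 counts in both untreated libraries and 2 and 5 counts at 24 µg/ml. It had 4 and 0 counts at 240 µg/ml and 2 and 10 counts at 480 µg/ml. These genes were below the filter and were not tested.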
